A study of Mus musculus with 30 samples.

Results

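The cytosolic ribosomal protein genes were the protein-coding genes whose symbol begins with Rpl or Rps and a digit, together with Rplp0, Rplp1, Rplp2 and Rpsa, without the Rps6k kinase genes and symbols ending in -ps. Of 86 such genes, 81 reached a mean of 5 CPM over the 30 samples, and these 81, of 55487 genes listed, are described here: 48 of the large (60S) subunit series and 33 of the small (40S) subunit series. CPM is a gene's count divided by the normalized size of its library and given for a library of 1e+06 counts. The member just above the minimum was Rps19bp1, at 9.93 CPM, and the gene just below it was Rps10, at 2.94 CPM. The other genes left out were Rpl36al, Rpl24, Rpl39l and Rpl10l, at 0.383 CPM or less. The minimum and these values are by library totals alone, without normalization factors. The name rule also takes in Rps19bp1, which encodes a protein that binds Rps19, and Rpl7l1, which encodes a nucleolar assembly factor related to Rpl7, neither of which is a subunit of the mature ribosome. It leaves out genes such as Fau and Rack1, which encode ribosomal proteins under other names.

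RNA was sequenced from mice of a model of oral cancer induced with 4NQO (4-nitroquinoline-1-oxide), a DNA-damaging compound taken with the drinking water. By the stage on their labels, 6 samples were invasive carcinoma, 6 carcinoma in situ, 7 dysplasia, 8 hyperplasia and 3 normal tissue. All 30 samples carry the same protocol, male C57BL/6J mice given 4NQO at 100 ug/mL for 10 weeks from 6 weeks of age, and the labels do not say whether the mice of the normal group drank it. They also name the tissue of every sample, normal ones included, as oral squamous cell carcinoma, and do not say that samples come from separate animals, so the spread behind a p-value is that of these samples and may be technical. Sample codes begin with A in hyperplasia, with B for dysplasia, with C at either carcinoma stage and with D in normal tissue, so anything that follows the letter cannot be told apart from stage except between the carcinoma stages. Of the 8 comparisons, 4 share the 3 normal samples.

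The ribosome is built from ribosomal RNA and single copies of nearly all its proteins, so that cells need the proteins of both subunits in matched amounts. The messenger RNAs of most ribosomal proteins and of several translation factors begin with a cytosine followed by a run of pyrimidines, the 5′ terminal oligopyrimidine (TOP) motif, through which mTORC1 controls their translation. Growth signals and Myc are known to raise production of ribosomes, and a few ribosomal proteins have paralogs with restricted expression, such as Rpl3l in striated muscle.

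The promoters were searched for pyrimidine-rich starts and for common promoter motifs. RefSeq promoter windows (GRCm38.p6) were found for 61 of the 81 members. The letters CTTTC lay within 20 bases of the start on the gene's strand in 18 of 61 members (29.5%), against 6.44% of 27025 genes with a promoter entry. The letters CCGGAAG, an ETS-type motif, lay in the 300-base window on either strand in 24 members (39.3%), against 9.93% of all genes, whereas TATAA on either strand was as frequent in the members (27.9%) as in all genes (27.99%). CTTTC on either strand of the whole window was found in 82.0% of members and 60.6% of all genes. A match describes the letters and not a working site. The windows below run from 45 bases before to 15 bases from the RefSeq start, with CTTTC on the gene's strand and CCGGAAG or its complement in capitals. They show genes called between carcinoma in situ and dysplasia or without overlap between invasive carcinoma and hyperplasia (Rpl15, Rpl5), a stalk protein (Rplp2), a partner of 5S ribosomal RNA (Rpl11), and 4 of the paralogs described below (Rps27rt, Rps27l, Rpl22l1 and Rpl3l) with the parents Rps27 and Rpl22.
Rpl15, chr14:18270972-18271031, minus strand: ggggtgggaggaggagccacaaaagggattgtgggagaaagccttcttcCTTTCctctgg
Rpl5, chr5:107900483-107900542, plus strand: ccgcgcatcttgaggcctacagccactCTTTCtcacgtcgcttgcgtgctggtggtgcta
Rplp2, chr7:141447606-141447665, plus strand: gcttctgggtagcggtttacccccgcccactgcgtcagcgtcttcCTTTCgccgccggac
Rpl11, chr4:136053379-136053438, minus strand: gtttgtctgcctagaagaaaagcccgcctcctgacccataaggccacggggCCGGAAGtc
Rps27, chr3:90213634-90213693, minus strand: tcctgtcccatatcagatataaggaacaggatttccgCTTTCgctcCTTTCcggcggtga
Rps27rt, chr9:114982725-114982784, minus strand: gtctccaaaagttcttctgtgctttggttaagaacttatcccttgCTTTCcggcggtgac
Rps27l, chr9:66946041-66946100, plus strand: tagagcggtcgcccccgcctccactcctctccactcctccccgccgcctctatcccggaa
Rpl22, chr4:152325681-152325740, plus strand: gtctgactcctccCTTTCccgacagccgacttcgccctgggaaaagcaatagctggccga
Rpl22l1, chr3:28805463-28805522, plus strand: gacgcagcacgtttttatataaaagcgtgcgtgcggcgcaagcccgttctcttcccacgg
Rpl3l, chr17:24727781-24727840, plus strand: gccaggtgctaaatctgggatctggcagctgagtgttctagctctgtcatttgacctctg
The windows of Rps27 and Rps27rt end in nearly the same letters. Those of Rpl11, Rps27l, Rpl22l1 and Rpl3l hold no CTTTC on the gene's strand, and the CTTTC of Rpl22 lies more than 20 bases before the start. Most members had none within that distance. RefSeq gives Rpl22, Rps27l and Rpl3l a further start that is not shown.

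Library totals ran from 17725604 to 28023098 counts, and the members together took 2.76% to 5.33% of them. Markers of other cell types moved with stage. The summed level of 22 skeletal muscle markers ran from 70060 to 96154 CPM in normal tissue, from 45391 to 81453 in hyperplasia, from 34083 to 61963 for dysplasia, from 34438 to 60420 in carcinoma in situ and from 21684 to 51784 in the invasive stage, and 19 of the 22 fell between normal tissue and invasive carcinoma. Of 14 keratinocyte markers 11 rose and 1 fell in that comparison, of 18 leukocyte markers tested 12 rose and 1 fell, and of 12 fibroblast and endothelial markers 8 fell. Of all genes tested 23.4% rose and 22.7% fell in it. Salivary gland markers, of which 13 were tested, summed to between 23.4 and 35930 CPM and were far higher in a few samples of each stage. In bulk tissue, fewer cells of a type and less RNA per cell cannot be told apart. Beside most comparisons stand the calls made or lost once a muscle score entered the fit as a covariate, and a salivary gland score was run likewise. The shares of all genes called are those of the fit without a score. Whether calls of other genes changed alike with a score is not shown. The part of keratinocytes, leukocytes, fibroblasts and endothelium was not tested.

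On the normalized scale, ribosomal protein messenger RNA was lowest in hyperplasia and highest in the carcinomas. The summed level of the 81 members was 31351, 36735 and 32554 CPM in the 3 normal samples (D01, D02, D03). In hyperplasia it ran from 27781 (A01) through a median of 29888 to 33570 CPM (A03), and in dysplasia from 28228 (B01) through 33032 to 36262 CPM (B07). Hyperplasias A03 and A06 lay within the range of normal tissue and the other 6 below it, and the dysplasias lay across that range apart from B01 below it. In carcinoma in situ the sum ran from 32345 (C04) through 39022 to 49056 CPM (C07), and in invasive carcinoma from 32182 (C05) through 41172 to 54596 CPM (C09). C04, C05, C11 and C12 lay within the range of normal tissue, and the other 8 carcinomas above every sample of the earlier stages. The low level in hyperplasia against normal tissue depended on whether normalization factors were used. With RLE in place of TMM factors the mean sums were 33832 CPM in normal tissue and 29812 CPM in hyperplasia. By library totals alone the mean sums were 30822 CPM in normal tissue and 30144 CPM in hyperplasia. All 3 normal sums then lay within the hyperplasia range of 27591 to 33720 CPM. Carcinomas C04 and C05 were also the samples with the highest summed muscle markers of their stages, 60420 and 51784 CPM. Their summed salivary gland markers were 9407 and 8496 CPM. Normal sample D02 went the other way, with the most muscle markers of the 30 samples, 96154 CPM, and the highest member sum of normal tissue.

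The sums of both subunits ran side by side. The large subunit genes summed to 19406 ± 1576 CPM (SD, n = 3) in normal tissue. They summed to 17391 ± 1118 CPM in hyperplasia (n = 8) and 19026 ± 1345 CPM in dysplasia (n = 7). The carcinomas in situ reached 23309 ± 3489 CPM (n = 6) and the invasive ones 24335 ± 4564 CPM (n = 6). The small subunit genes summed to 14140 ± 1252, 12540 ± 875, 13723 ± 1118, 16982 ± 2731 and 17744 ± 3660 CPM in stage order. The ratio of the large to the small sum stayed between 1.34 and 1.41 in all 30 samples, with stage means of 1.37, 1.39, 1.39, 1.37 and 1.38. These sums are a description and carry no test, and they are dominated by the most abundant members.

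**Figure D1:**
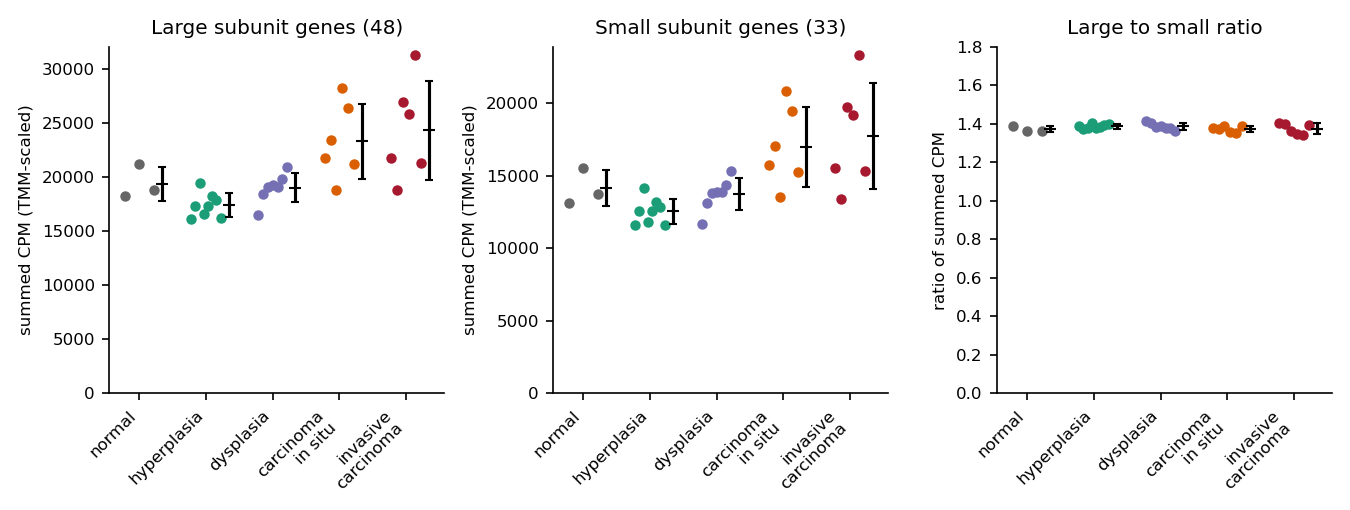
Summed CPM of the large subunit genes, the small subunit genes and their ratio in each of 30 samples by stage, 1 point per sample with the mean and SD. The normalized sums are lowest in hyperplasia, with a mean of 17391 CPM for the large subunit, and spread widely in the carcinomas, while the ratio stays between 1.34 and 1.41.

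Stage means were ordered alike in nearly all members. They were higher at each step from hyperplasia through dysplasia and carcinoma in situ to invasive carcinoma in 78 of 81 members, the exceptions being Rpl36, Rpl3l and Rps27l. On the normalized scale the lowest stage mean was in hyperplasia for 75 members and in normal tissue for 4, and the highest was in invasive carcinoma for 79. The spread between samples grew as well: the median coefficient of variation of a member was 9.26% in normal tissue and at 7.90%, 8.46%, 16.4% and 19.9% over the later stages in order. The same few samples set the extremes of each stage. C09 was the highest invasive carcinoma for 79 members and C05 the lowest for 79, C07 was the highest carcinoma in situ for 68 and C04 the lowest for 79, and B07 and B01 were the highest and lowest dysplasia for 65 and 74. An F test over the 5 stages in edgeR's quasi-likelihood model called all 81 members at an adjusted p under 0.05, where 53.2% of the 17638 genes tested were called.

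Invasive carcinoma against hyperplasia was the widest contrast: 79 members rose and 1 fell. The median member rose by 0.50 on the log2 scale, a fold of 1.42, against -0.01 for all genes tested, and 38.4% of all genes were called, 19.1% higher and 19.2% lower. Of the large subunit, 47 genes rose and Rpl3l fell, and of the small subunit 32 rose. The medians were 0.50 for large and 0.53 for small subunit genes, and 77 members lay within 0.2 of the overall median. The single member not called was Rps27l. The number of calls was 64 with the muscle score as a covariate, where the median was 0.42 and Rplp2, Rps19, Rps29, Rpl7l1, Rps19bp1, Rpl13a and Rpl3l were among the calls lost, and 63 with the number in a sample's code as a block. Stage ranges were separate for 15 members that rose (3.9% of all genes) and for Rpl3l, which fell (3.96%). Among those that rose were Rpl3, Rpl5, Rpl17, Rpl22l1, Rps3, Rps4x, Rps27rt and, named after their values were seen, Rpl7a, Rpl10a, Rpl15, Rpl23 and Rps15a.

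**Figure D2:**
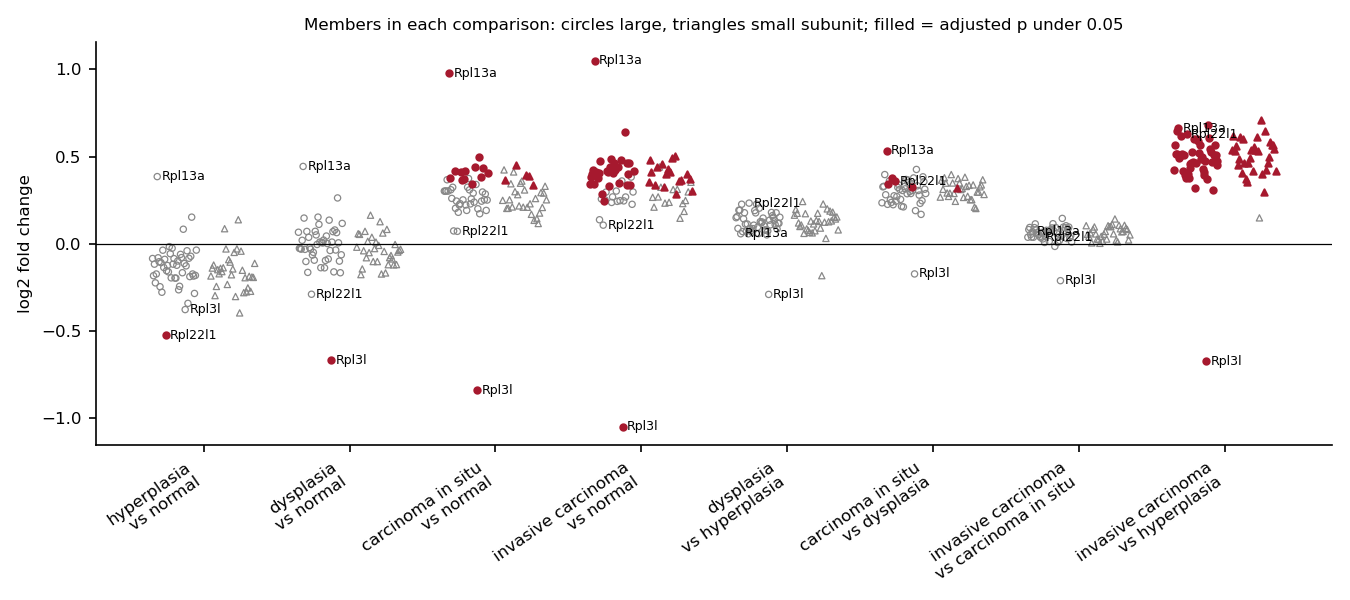
Log2 fold change of each of the 81 members in 8 comparisons, circles for the large and triangles for the small subunit, filled where the adjusted p is under 0.05. Members lie in a narrow band around a median of 0.50 for invasive carcinoma against hyperplasia, with Rps27l at 0.15 below it and Rpl3l, which fell, the lowest.

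The acidic stalk of the large subunit, which recruits the elongation factors, is built by Rplp0, Rplp1 and Rplp2. Rplp0, the most abundant member at a mean of 1754 CPM, was at 1665, 1956 and 1695 CPM in normal tissue, 1366 to 1631 (median 1416) in hyperplasia, 1348 to 1763 (1563) for dysplasia, 1590 to 2545 (1932) in carcinoma in situ and 1548 to 2718 (2039) in the invasive stage. All 8 hyperplasias lay below the 3 normal samples, while the carcinomas overlapped every stage. Against hyperplasia it rose in invasive carcinoma by 0.51 ± 0.11 (log2 fold change ± SE, adjusted p = 0.000804), and its difference of 0.23 from normal tissue did not pass (adjusted p = 0.205). Rplp1 averaged 814 ± 101, 718.5 ± 60.3, 780 ± 50.04, 969 ± 150 and 1001 ± 163 CPM over the stages and rose by 0.48 ± 0.10 between hyperplasia and invasive carcinoma (adjusted p = 0.000521). Rplp2 rose by 0.45 ± 0.11 in that comparison (adjusted p = 0.00309, and 0.0761 with the muscle score as a covariate).

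Rpl5 and Rpl11 carry 5S ribosomal RNA and, outside the ribosome, bind the p53 inhibitor Mdm2. Rpl5 was at 579.8, 701 and 589.6 CPM in normal tissue, 443 to 533 (median 502) in hyperplasia, 509 to 594 (564) for dysplasia, 566 to 888 (669.7) in carcinoma in situ and 569.8 to 989 (726) in the invasive stage. Every invasive carcinoma lay above every hyperplasia, and every hyperplasia below every normal sample. It rose by 0.61 ± 0.11 between hyperplasia and invasive carcinoma (adjusted p = 0.000112), while the difference of -0.34 ± 0.13 between hyperplasia and normal tissue did not pass (adjusted p = 0.0769). Rpl11 ran from 283.5 to 352 CPM in hyperplasia and from 330.1 to 600.0 CPM in invasive carcinoma, which overlap, and rose by 0.51 ± 0.11 (adjusted p = 0.000841).

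Among small subunit proteins, Rps6 is the substrate of the S6 kinases downstream of mTORC1, Rps3 lines the entry of the messenger RNA channel, and Rps19 is the gene most often mutated in Diamond-Blackfan anaemia. Rps6 was at 373, 426 and 400.4 CPM in normal tissue, 311 to 412 (median 351) in hyperplasia, 332 to 440.5 (409) in dysplasia, 392 to 609 (474) in carcinoma in situ and 402 to 682 (516.5) in the invasive stage. The lowest invasive carcinoma lay just under the highest hyperplasia, and the rise was 0.59 ± 0.10 (adjusted p = 0.000119). Rps3 ran from 539 to 665 CPM in hyperplasia and from 666 to 1243 CPM in invasive carcinoma, just without overlap, and rose by 0.65 ± 0.11 (adjusted p = 0.00012). Rps19 averaged 315 ± 29.0 CPM in hyperplasia and 434 ± 106 CPM in invasive carcinoma and rose by 0.46 ± 0.12 (adjusted p = 0.00402, and 0.103 with the muscle score as a covariate). Rpsa, which encodes a 40S protein also known as the laminin receptor, rose by 0.42 ± 0.09 (adjusted p = 0.00135), from 902 ± 53.3 to 1203 ± 233 CPM. Rps27a, which encodes ubiquitin fused to a 40S protein, rose by 0.53 ± 0.11 (adjusted p = 0.000628), from 334.5 ± 27.0 to 484 ± 105 CPM.

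The size of the rise differed modestly between members. The largest among the large subunit genes were Rpl41 (0.68 ± 0.15, adjusted p = 0.00076), which encodes the smallest ribosomal protein, Rpl13a (0.66 ± 0.15) and Rpl12 (0.65 ± 0.12), and among the small subunit genes Rps27rt (0.71 ± 0.14), Rps3 and Rps12 (0.62 ± 0.14). The smallest rises called were those of Rps29 (0.30 ± 0.08, adjusted p = 0.00689), Rpl7l1 (0.31 ± 0.08), Rpl30 (0.32 ± 0.08), Rps2 (0.35 ± 0.09), Rps19bp1 (0.37 ± 0.09) and Rpl4 (0.37 ± 0.08). With the muscle score as a covariate all of these but Rpl4 lost the call, with adjusted p from 0.0519 for Rps19bp1 to 0.158 for Rpl7l1. Rpl41 was at 371, 484 and 326 CPM in normal tissue, 299.0 to 457 (median 401) in hyperplasia, 379 to 437 (423) for dysplasia, 389 to 782 (536) in carcinoma in situ and 448 to 857 (559) in the invasive stage. Its coding sequence is only 75 bases long. Per kilobase of coding sequence Rpl41 stood highest, at 6295 CPM per kb over all samples, followed by Rplp1 at 2482, Rps29 at 2082 and Rplp0 at 1844. Counts are per gene, and the annotated exons of Rpl41 span 1168 bases, so this order depends on the length used. Rps19bp1 stood lowest at 23.1 CPM per kb, followed by Rpl13a at 27.7, Rps27rt at 72.7, Rpl7l1 at 100.4 and Rpl3l at 163.

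**Figure D3:**
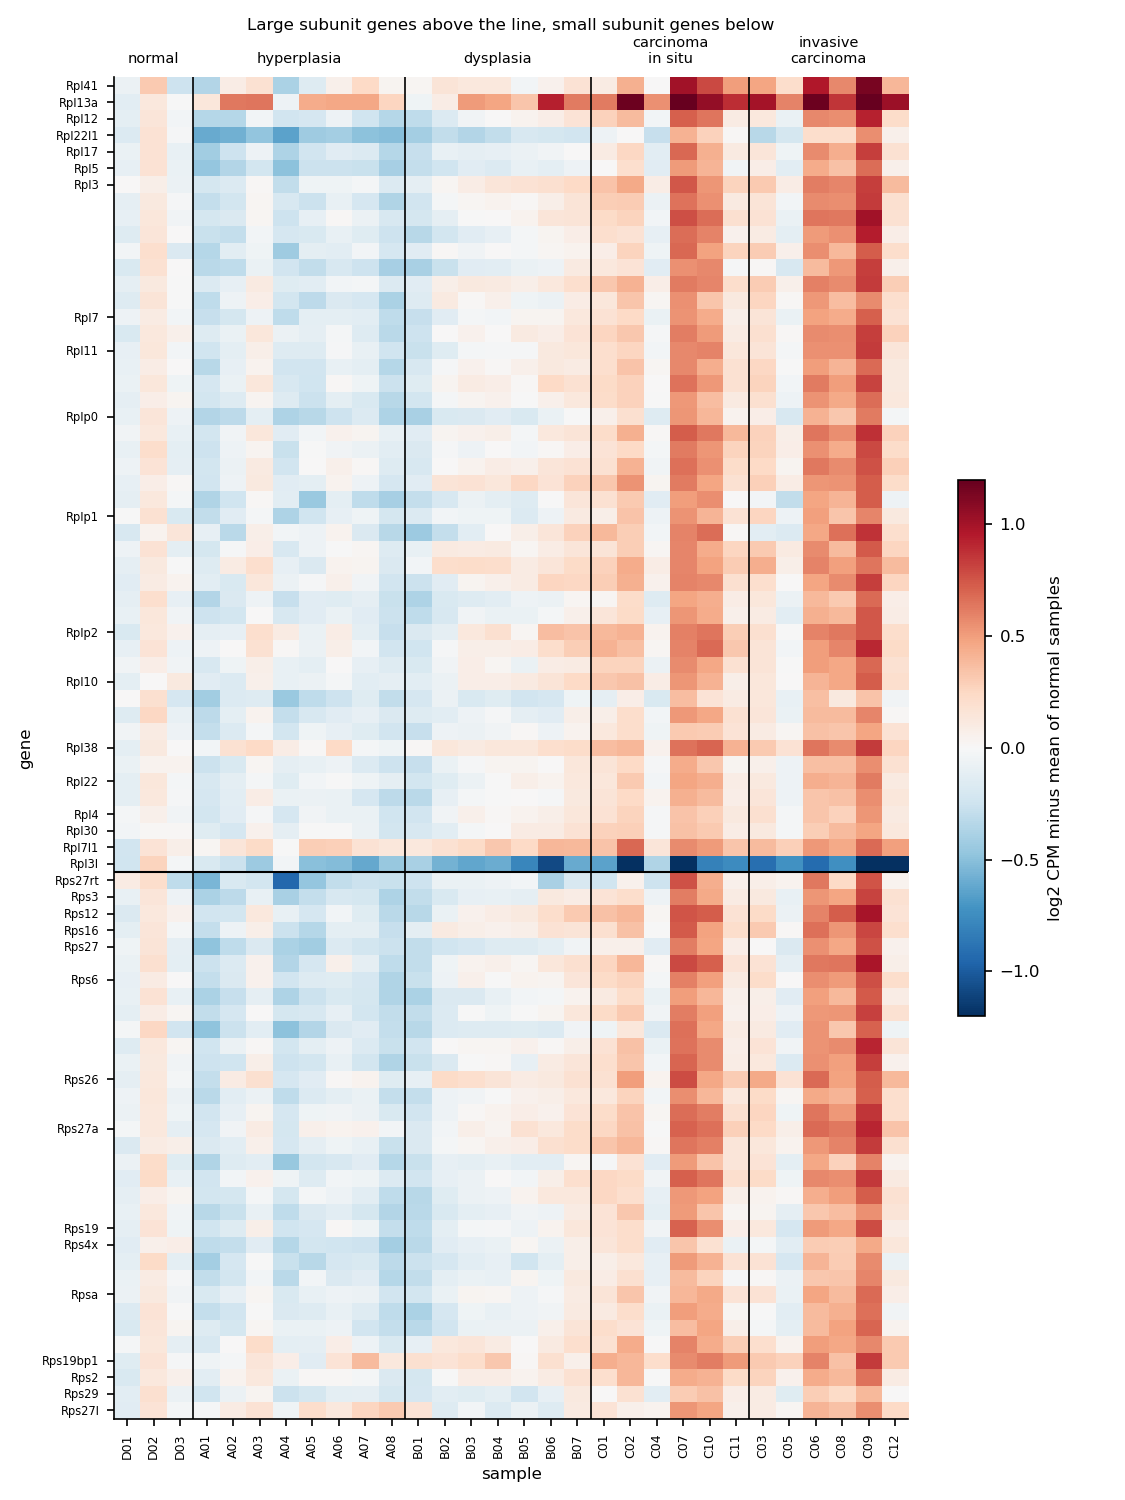
Log2 CPM of the 81 members in 30 samples, minus the mean of the normal samples, with large subunit genes above the line and small subunit genes below, and only some of the rows labelled with their gene. The colour scale ends at 1.2 in either direction, which some values of Rpl13a and Rpl3l exceed, and whole columns of carcinomas such as C07 and C09 are raised while C04 and C05 are not.

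Hyperplasia against normal tissue left only Rpl22l1 called, which fell by 0.52 ± 0.13 (adjusted p = 0.00607), where 14.3% of all genes were called, 8.22% higher and 6.07% lower. The median member was at -0.14 against 0.01 for all genes, 76 of 81 values were negative, and 7 members had an unadjusted p under 0.05, where 29.3% of all genes did. In 7 members every hyperplasia lay below the 3 normal samples (5.52% of all genes, against 9.13% that lay above): Rpl5, Rpl22l1, Rplp0, Rps3, Rps4x, Rps27 and, named after its values were seen, Rps7. These values are on the normalized scale. By library totals alone the members summed to a mean of 30822 CPM in normal tissue and 30144 CPM in hyperplasia. Calls numbered 3 with the muscle score as a covariate, 8 in a fit of these groups alone and 4 with DESeq2. Without normal sample D02, in which 78 members are highest of the normal samples, no member was called and Rpl22l1 had an adjusted p of 0.0797, and without D03 or C09 there were 2 calls.

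Dysplasia against normal tissue called only Rpl3l, which fell by 0.67 on the log2 scale (SE 0.20, adjusted p = 0.0164), where 25.7% of all genes were called. The median member was at -0.03, against 0.01 for all genes, with 34 values positive and 47 negative, and 4 members had an unadjusted p under 0.05, where 38.3% of all genes did. Rpl3l and Rpl22l1 lay below every normal sample in all 7 dysplasias (8.95% of all genes). The call of Rpl3l was lost without D02 (adjusted p = 0.129) and with the muscle score as a covariate (adjusted p = 0.859). Without B01 or with library totals alone there were 3 calls, and without B02, C04 or C05 there were 2. Dysplasia against hyperplasia called no member with edgeR, where 5.18% of all genes were called, 2.99% higher and 2.19% lower. The median was 0.12 against -0.01, 79 of 81 values were positive, and 9 members had an unadjusted p under 0.05, where 21% of all genes did. The number of calls was also 0 with DESeq2 and limma-voom, and it was 4 in a fit of these groups alone. The largest differences were those of Rps16 (0.24 ± 0.10, adjusted p = 0.169), Rpl22l1 (0.23 ± 0.10, adjusted p = 0.167) and Rpl3 (0.23 ± 0.09, adjusted p = 0.155), and Rpl22l1 was the member whose ranges were separate (1.05% of all genes, with 0.862% separate in the other direction).

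Carcinoma in situ against normal tissue raised 18 members, 13 of the large and 5 of the small subunit, and lowered Rpl3l, where 37.6% of all genes were called and 19.4% were higher. The share of members called in either direction was thus below that of all genes, and the share that rose was close to the 19.4% of all genes. The median member stood at 0.29 against 0.02, and 80 of 81 values were positive. The largest rises were those of Rpl13a (0.98 ± 0.21, adjusted p = 0.000796), Rpl41 (0.50 ± 0.20, adjusted p = 0.0454), Rps19bp1 (0.45 ± 0.12, adjusted p = 0.00511), Rpl38 (0.44 ± 0.12, adjusted p = 0.00619), Rpl7l1 (0.43 ± 0.10, adjusted p = 0.00202) and Rpl3 (0.42 ± 0.13, adjusted p = 0.0129). Ranges were separate for Rpl3, Rpl13a and Rps19bp1 (14.1% of all genes). The number of calls followed single libraries: 43 without C04 and 30 without C09, but 6 without D01 or D03, 7 without C07, 10 without C10 and 11 without C02. It was 5 with the muscle score as a covariate, where Rpl41 and Rpl3 were among the calls lost, 34 with the salivary gland score, and 72 with library totals alone, which put the median of all genes at 0.18. The call of Rpl41 was lost without any of 14 single samples (adjusted p up to 0.206, without D03), and that of Rpl3 without D03 (0.0658).

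Invasive carcinoma against normal tissue raised 49 members, 31 of the large and 18 of the small subunit, and lowered Rpl3l, where 46.1% of all genes were called, 23.4% higher and 22.7% lower. An unadjusted p under 0.05 was reached by 60 members and 52.9% of all genes. The median member stood at 0.35 against 0.02. Beside Rpl13a (1.05 ± 0.21, adjusted p = 0.000234) the largest rises were those of Rpl41 (0.64 ± 0.20), Rps27a (0.50 ± 0.15, adjusted p = 0.00713), Rps26 (0.49 ± 0.13), Rpl3 (0.49 ± 0.13, adjusted p = 0.00337), Rps12 (0.48 ± 0.18) and Rpl38 (0.48 ± 0.12). Ranges were separate for Rpl3, Rpl7l1, Rpl13a, Rpl14, Rpl38, Rps19bp1 and Rps26 (17.2% of all genes). Rpl3, which helps form the peptidyl transferase centre, was at 551, 574 and 522 CPM in normal tissue and from 584.7 to 977 (median 769) in invasive carcinoma. With the muscle score as a covariate no member was called, and the median was 0.22, while library totals alone gave 77 calls and a median of all genes of 0.16. The 46.1% of all genes called is from the fit without the score. Without D01 or D03 16 members were called, without C09 19, without C06 31 and without C08 32. Rps12 lost its call without any of D01, D02, D03, C06, C08 or C09, and Rpl41 without D03 (adjusted p = 0.068).

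Carcinoma in situ against dysplasia raised 6 members and lowered none, where 5.47% of all genes were called, 2.99% higher and 2.47% lower: Rpl13a (0.54 ± 0.15, adjusted p = 0.0385), Rpl22l1 (0.36 ± 0.11, adjusted p = 0.0417), Rpl37a (0.33 on the log2 scale) and, named after their values were seen, Rpl19 (0.38), Rpl15 (0.34) and Rps20 (0.32). The median member rose by 0.31 against 0.00 for all genes, and 80 members had an unadjusted p under 0.05, against 23.3% of all genes. With most members near the threshold, the count moved with the samples: 71 without C04, 27 without C09, 25 without C05, 10 without C01 or C12, 2 without D03, A01, A03, A08, B07 or C08, 1 without B01 or B06, and 0 without B02, B03, B04, B05, C02, C07, C10 or C11. It was 60 with the muscle score as a covariate, 57 with library totals alone and 28 with DESeq2. Without C07, Rpl13a had an adjusted p of 0.166 and Rpl22l1 of 0.177. Between carcinoma in situ and invasive carcinoma, the only stages that share a code letter, edgeR called no member and 0.0% of all genes, and no member had an unadjusted p under 0.05, where 7.14% of all genes did. No member had separate ranges, against 0.0907% of all genes higher and 0.0907% lower. DESeq2 and limma-voom called no member either. The median difference was 0.06, from -0.21 ± 0.17 for Rpl3l to 0.15 ± 0.16 for Rpl41.

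Within stages the members varied together. Across the 30 samples, after removing stage means, the median correlation between pairs of members was 0.90, and it was 0.90 within the large subunit, 0.91 within the small and 0.90 between them. The correlation of a member with the mean of the others had a median of 0.95 and exceeded 0.8 in 74 members. The samples share library scaling and tissue make-up, and these values are descriptions. Low values were those of Rpl3l (-0.29), Rps19bp1 (0.65), Rps27l (0.69), Rps27rt (0.74), Rpl7l1 (0.76) and Rpl13a (0.77). Apart from Rpl13a these are paralogs or a gene whose product is not a ribosomal subunit.

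Rpl3l (17:24727820-24736143, plus strand, GRCm38) encodes the striated-muscle paralog of Rpl3 and went against the others. It was at 252, 359.6 and 293 CPM in normal tissue, 195 to 291.5 (median 219) in hyperplasia, 141 to 228 (196.5) in dysplasia, 114 to 232 (173) in carcinoma in situ and 71.7 to 180.3 (158) in the invasive stage. The normal samples overlapped hyperplasia only, and every invasive carcinoma lay below every hyperplasia. It fell by 1.05 on the log2 scale between normal tissue and invasive carcinoma (SE 0.20, adjusted p = 0.000223) and by 0.84 in carcinoma in situ (SE 0.21, adjusted p = 0.00267). The sample with the least Rpl3l, invasive carcinoma C12, had the lowest summed muscle markers of the 30, 21684 CPM. With the muscle score as a covariate, the difference of invasive carcinoma was -0.32 from normal tissue (adjusted p = 0.108) and -0.19 from hyperplasia (adjusted p = 0.201), and that of carcinoma in situ from normal tissue was -0.34 (adjusted p = 0.0369).

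The level of each paralog was also set against its parent gene within a sample, which does not depend on library scaling. Such a ratio can still follow tissue make-up, and no muscle score entered these tests. The test was an exact two-sided permutation of the difference in mean log2 ratio, adjusted over the 40 tests of 5 pairs. In comparisons with the 3 normal samples the smallest p possible was 0.0121 for hyperplasia, 0.0167 for dysplasia and 0.0238 for the carcinomas, and none passed after adjustment. Rpl3l stood at 54.8% of Rpl3 in normal tissue and at 46.4%, 32.5%, 24.2% and 19.6% over the later stages in order. The log2 ratio fell by 1.31 between hyperplasia and invasive carcinoma, with all 6 carcinomas below all 8 hyperplasias (exact permutation p = 0.000666, the smallest possible, adjusted 0.00888). It fell by 0.52 between hyperplasia and dysplasia, with 6 of 7 below (exact permutation, adjusted p = 0.0394), a call lost without any of 13 of the 15 samples except A07 and B01 (adjusted p up to 0.0562).

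Rpl22l1 (3:28805436-28807424, plus strand) is the paralog of Rpl22, an RNA-binding protein of the large subunit, and had a dip in hyperplasia. Its level was 73.4, 92.3 and 81.5 CPM in normal tissue, 52.5 to 61.7 (median 57.9) in hyperplasia, 61.9 to 71.6 (67.0) in dysplasia, 67.6 to 109.6 (82.5) in carcinoma in situ and 65.0 to 120.8 (90.3) in the invasive stage. Hyperplasia lay below every other stage without overlap. Rpl22 itself averaged 205 ± 17.9, 193 ± 8.77, 201 ± 17.0, 243 ± 34.1 and 250.3 ± 44.8 CPM. The ratio of Rpl22l1 to Rpl22 was 40.1% in normal tissue and at 29.8%, 33.7%, 35.6% and 35.4% over the later stages in order. All 8 hyperplasias lay below the normal samples (log2 difference -0.43, exact permutation p = 0.0121, adjusted 0.0533). From hyperplasia the log2 ratio rose by 0.18 to dysplasia, above in 7 of 7 (exact permutation, adjusted p = 0.00888), and by 0.24 to invasive carcinoma, above in 5 of 6 (adjusted p = 0.0394). The last call was lost without any hyperplasia sample and without C06, C08 or C09 (adjusted p up to 0.0556).

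Rps27l is a p53-responsive paralog of Rps27, and its ratio to Rps27 was highest in hyperplasia. Its level was 45.01, 55.5 and 48.9 CPM in normal tissue, 47.8 to 61.6 (median 55.1) in hyperplasia, 44.3 to 55.7 (47.2) in dysplasia, 51.0 to 71.4 (53.7) in carcinoma in situ and 50.5 to 73.3 (61.0) in the invasive stage, and all stages overlapped. Its parent Rps27 was at 285, 329 and 273 CPM in normal tissue, 211 to 263 (243) in hyperplasia, 240.5 to 287 (265) in dysplasia, 269 to 451 (309.6) in carcinoma in situ and 261 to 499 (357) in the invasive stage. Rps27 rose by 0.61 ± 0.12 between hyperplasia and invasive carcinoma (adjusted p = 0.000311), where Rps27l differed by 0.15 ± 0.09 (adjusted p = 0.185). Rps27l stood at 16.9% of Rps27 in normal tissue and at 22.9%, 18.5%, 17.2% and 17.0% over the later stages in order. The log2 ratio in hyperplasia was 0.44 above normal tissue, in 8 of 8 samples (exact permutation p = 0.0121, adjusted 0.0533). It fell by 0.31 to dysplasia, below in 6 of 7 (exact permutation, adjusted p = 0.0155), and by 0.44 to invasive carcinoma, below in 6 of 6 (adjusted p = 0.00888).

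The ratios of the remaining pairs passed in no comparison. Rpl7l1 stood at 7.37% of Rpl7 in normal tissue and at 9.36%, 9.10%, 8.48% and 8.21% over the later stages in order. No comparison of its ratio passed (smallest adjusted p = 0.0533, exact permutation), although all 8 hyperplasias and all 7 dysplasias lay above the 3 normal samples. Rpl7l1 itself rose by 0.46 ± 0.10 in invasive carcinoma against normal tissue (adjusted p = 0.000676, and 0.13 with the muscle score as a covariate), from 51.4, 67.3 and 63.1 CPM to between 73.2 and 96.4 CPM. Rps27rt, an intronless copy of Rps27 with a coding sequence of the same length of 252 bases, stood at 5.92% to 6.39% of Rps27 in every stage mean, and no comparison passed (smallest adjusted p = 0.388, exact permutation). Because of the likeness of Rps27 and Rps27rt, counting could split reads between them, and Rps27rt also lies opposite Osbpl10. A further 4 listed paralogs, Rpl36al, Rpl39l, Rpl10l and Rps4l, could not be tested at their levels.

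**Figure D4:**
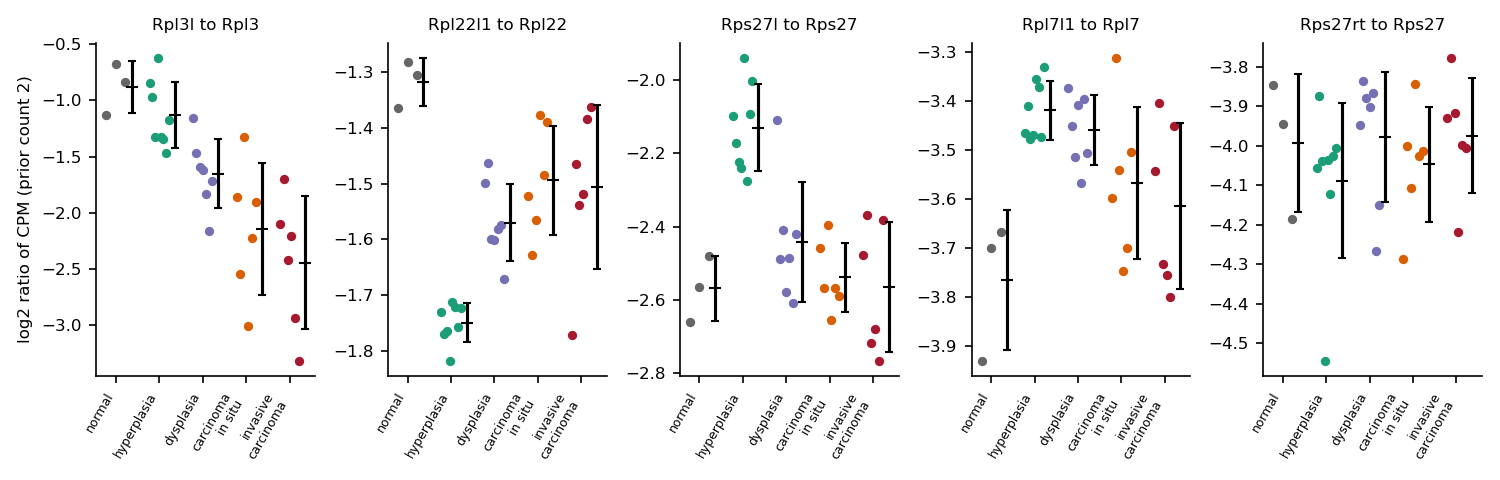
Log2 ratio of the CPM of each paralog to its parent gene in 30 samples by stage, 1 point per sample. Rpl3l to Rpl3 declines from stage to stage, Rpl22l1 to Rpl22 is lowest and Rps27l to Rps27 highest in hyperplasia, and Rps27rt to Rps27 stays level.

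Rpl13a (7:45125558-45128761, minus strand) encodes a large subunit protein that is released in the interferon response, and its low counts need care. It was at 9.80, 11.7 and 10.7 CPM in normal tissue, 10.2 to 16.7 (median 14.7) in hyperplasia, 10.3 to 20.4 (14.8) in dysplasia, 15.7 to 28.6 (21.01) in carcinoma in situ and 16.2 to 30.3 (21.6) in the invasive stage. Of its exonic bases 35.4% are shared with the read-through gene Gm45713, which is listed at 0, and processed copies of Rpl13a elsewhere in the genome could share its reads, so this level may not be that of the messenger RNA. Its rise lost the call with the muscle score as a covariate, both against normal tissue (0.54, adjusted p = 0.0883) and against hyperplasia (0.33, adjusted p = 0.143). Rpl24 and Rps10, which fell under the minimum, share 47.0% and 20.6% of their exonic bases with such genes. Pseudogenes named after ribosomal proteins, 301 in the table, took 2.03 to 2.11 counts per 100 counts of the members in each stage mean. Of the 89 tested, 45 rose and 1 fell between hyperplasia and invasive carcinoma, with a median of 0.57 against -0.01 for all genes. Of all genes 19.1% rose and 19.2% fell there. Reads of a gene and its near-identical copies cannot be told apart here.

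Other genes of the translation machinery, from lists chosen with earlier results known, followed the members in part. Of 21 translation factors and other TOP messenger RNAs tested, 4 fell in hyperplasia against normal tissue (6.07% of all genes) and 8 rose in invasive carcinoma against normal tissue (23.4%). In invasive carcinoma against hyperplasia 16 rose and none fell, where 19.1% of all genes rose (median 0.36, against -0.01 for all genes). Eef1a1, which brings aminoacyl-tRNA to the ribosome, averaged 4039, 3668, 4214, 5141 and 5470 CPM over the 5 stages and rose by 0.58 ± 0.10 between hyperplasia and invasive carcinoma (adjusted p = 0.000167). Rack1, a scaffold on the small subunit, averaged 844, 714, 793, 975 and 1036 CPM and rose by 0.54 ± 0.10 (adjusted p = 0.000254). Npm1, a nucleolar chaperone, was at 266, 299.7, 322, 386 and 427 CPM and rose by 0.68 ± 0.15 against normal tissue (adjusted p = 0.000549).

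Most ribosome assembly factors were already called in dysplasia. Of 43 tested, 7 rose in hyperplasia, 36 rose in dysplasia, 37 at the in situ stage and 36 at the invasive stage against the shared normal samples, with none falling, and their medians were 0.24, 0.43, 0.43 and 0.43. Of all genes 8.22%, 13.3%, 19.4% and 23.4% rose in these comparisons. In the same comparisons the members' medians were -0.14, -0.03, 0.29 and 0.35. Between carcinoma in situ and dysplasia, where the members' median was 0.31, that of the assembly factors was 0.01, with 1 factor lower (2.47% of all genes). The difference between the lists was not tested. Summed muscle markers ran from 70060 to 96154 CPM in the normal samples and from 34083 to 61963 CPM in dysplasia. The part of muscle in the changes of this and the other translation lists was not tested. Nop56, a core protein of the snoRNPs that guide methylation of ribosomal RNA, averaged 42.0, 62.9, 70.5, 74.9 and 76.4 CPM and rose by 0.58 ± 0.11 in hyperplasia (adjusted p = 0.000998). Fbl, the methyltransferase of these particles, averaged 45.3, 55.2, 64.8, 71.7 and 75.2 CPM and rose by 0.52 ± 0.12 in dysplasia (adjusted p = 0.00336). Bop1, an assembly factor of the large subunit, rose by 0.27 ± 0.07 between hyperplasia and dysplasia (adjusted p = 0.026).

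RNA polymerase I, which makes the ribosomal RNA precursor, and the upstream regulators had calls in both directions. Of 14 genes of its machinery tested, 7 rose and 1 fell in dysplasia (13.3% and 12.4% of all genes) and 7 rose in invasive carcinoma (23.4% of all genes), both against normal tissue. Polr1e, a subunit of the enzyme, averaged 6.60, 9.84, 10.7, 12.5 and 12.3 CPM and rose by 0.58 ± 0.15 in hyperplasia (adjusted p = 0.0104). Of 17 mTORC1 components and TOP regulators, 4 rose and 6 fell in invasive carcinoma against normal tissue, where 23.4% of all genes rose and 22.7% fell. Myc averaged 33.7, 47.7, 48.6, 50.9 and 63.2 CPM and rose by 0.50 ± 0.14 in hyperplasia (adjusted p = 0.0148) and by 0.91 ± 0.15 in invasive carcinoma (adjusted p = 3.43e-05), both against normal tissue. Mtor fell by 0.49 in hyperplasia (adjusted p = 9.9e-05), from 69.7 to 49.5 CPM. Deptor, an inhibitor of mTOR, fell by 0.48 between dysplasia and carcinoma in situ (adjusted p = 0.025), from 76.7 to 54.8 CPM. Eif4ebp1, the translation repressor that mTORC1 inactivates, rose by 0.71 ± 0.15 between hyperplasia and invasive carcinoma (adjusted p = 0.001).

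Many genes named as mitochondrial ribosomal proteins fell against normal tissue. They were listed by symbol, Mrpl or Mrps followed by a digit. A symbol does not show that the product is part of the mitochondrial ribosome. Of 77 tested, 41 fell and none rose in dysplasia, where 12.4% of all genes fell, and 30 fell and 1 rose in invasive carcinoma, where 22.7% of all genes fell, both against normal tissue, with medians of -0.27 and -0.20. Between hyperplasia and invasive carcinoma 5 rose and 6 fell, with a median of -0.01, where 19.1% of all genes rose and 19.2% fell. Mrps36, listed by its symbol alone, averaged 29.6, 21.5, 19.4, 19.0 and 17.9 CPM. It fell by 0.73 in invasive carcinoma against normal tissue (SE 0.13, adjusted p = 8.32e-05). Muscle is rich in mitochondria, and mitochondrially encoded transcripts took 11.6%, 9.16%, 7.498%, 6.90% and 6.59% of counts over the 5 stages, beside the fall in muscle markers given above. The part of muscle in these falls was not tested.

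**Figure D5:**
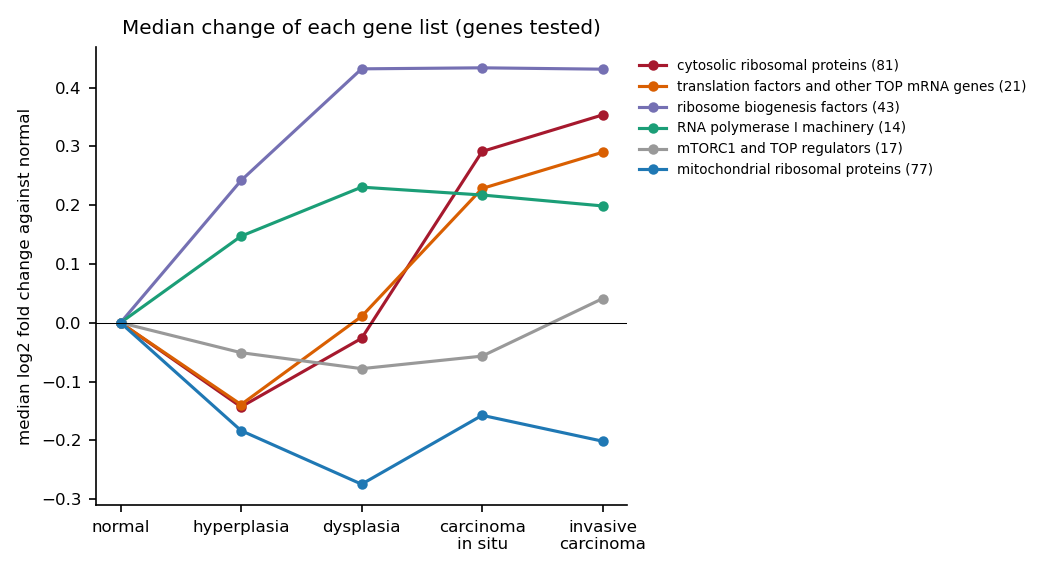
Median log2 fold change against normal tissue of each gene list in the 4 other stages, with the number of genes tested in the legend. Assembly factors reach 0.43 by dysplasia, the ribosomal proteins fall to -0.14 in hyperplasia and reach 0.35 in invasive carcinoma, and mitochondrial ribosomal proteins stay below 0.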

How the data were processed

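Members and gene lists were chosen with earlier results of these data known. Poly(A) RNA libraries were made with a stranded kit, per the labels' protocols. Per the submitters' processing notes, the tools were cutadapt 2.4 for trimming and STAR 2.7.2a for alignment, on GRCm38. The program that counted reads, its strand setting and the annotation are not given in the sources used here. The authors deposited raw counts per Ensembl gene. Of 55487 identifiers, 55227 (99.53%) matched GENCODE M21 once versions were dropped, for symbols and positions.

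Library totals ran from 17725604 to 28023098, and their number limits the precision of genes with few counts. edgeR 4.0.16 (R 4.3.3) was run with TMM factors (0.892 to 1.06) and its expression filter, which kept 17638 genes and all 81 members. Its quasi-likelihood model had 1 mean per stage over all 30 samples (common dispersion 0.0576). Calls used Benjamini-Hochberg adjusted p under 0.05 over all genes in each of 8 two-sided comparisons. CPM used the TMM factors. Log2 ratios used a prior count of 2. Scripts were tested on simulated data.

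Members named are the paralogs and parents, the 3 largest changes per direction and subunit in each comparison, a list of well-known members, and up to 4 genes per other list. A few members that the rule covers are not reported by name here.

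Alternatives were RLE, upper-quartile and no scaling factors, no filter, other CPM minimums and prior counts, library size without mitochondrial and muscle genes, muscle or salivary scores as covariates, the sample number as a block, fits of 2 groups, limma-voom (limma 3.58.1), DESeq2 1.42.0 and leaving out each sample. Leaving out the 4 samples over 10000 summed salivary CPM (D01, A08, B01, C12) was chosen after seeing the data. Tables and figures used Python 3.11.15, numpy 2.4.6, pandas 2.3.3, scipy 1.17.1 and matplotlib 3.10.9.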

Additional observations from a re-analysis of the deposited data

Results flagged for a closer look

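Within a stage, 7 of 228 sets of values held 1 sample whose gap to its nearest neighbour was a large part of the range, and chance gives this in about 1 in 20 groups. Dysplasia B01, the sample with the highest summed salivary gland markers (35930 CPM), was low for Rpl14 at 368.6 CPM (the others 446.1 to 489.9), Rpl17 at 330.8 (372.8 to 401.6), Rpl35 at 171.3 (203.5 to 227.6) and Rps26 at 242.1 (278.9 to 305.8). Its log2 ratio of Rps27l to Rps27 was high at -2.11 (-2.608 to -2.408). Dysplasia B07 was high for Rps29 at 378.1 CPM (297.3 to 327.1). Hyperplasia A04 was low for the log2 ratio of Rps27rt to Rps27 at -4.544 (-4.123 to -3.874).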

How the results depend on the processing

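The calls of invasive carcinoma against hyperplasia were 80 members in the edgeR fit and at least 63 under every alternative, and those between the carcinoma stages were 0 in all. Counts in the other comparisons moved. The shares of all genes called in these alternative fits are not given here. The counts therefore do not show whether the members moved apart from other genes. Hyperplasia against normal tissue went from 1 call to 3 with the muscle covariate, 8 in a fit of the 2 groups, 4 with DESeq2 and 0 to 2 with 1 sample left out. Dysplasia against normal tissue went from 1 to 3 with library totals alone, 0 with the muscle covariate, 2 with the salivary covariate, a fit of the 2 groups or limma-voom, and 0 to 3 with 1 sample left out. Carcinoma in situ against normal tissue went from 19 to 72 with library totals alone, 8 without the filter, 5 with the muscle covariate, 34 with the salivary covariate, 5 in a fit of the 2 groups, 6 without the salivary-rich samples and 6 to 43 with 1 sample left out. Invasive carcinoma against normal tissue went from 50 to 77, 19, 0, 7 (2 groups), 17 (salivary-rich samples left out) and 16 to 70 in the same way. Dysplasia against hyperplasia went from 0 to 4 in a fit of the 2 groups. Carcinoma in situ against dysplasia went from 6 to 20 with upper-quartile factors, 57 with library totals alone, 0 without the filter, 60 with the muscle covariate, 18 with the salivary covariate, 0 in a fit of the 2 groups, 2 with limma-voom, 28 with DESeq2, 1 without the salivary-rich samples and 0 to 71 with 1 sample left out. Apart from the smaller fits, the cause was not tested. Library totals alone put the median of all genes against normal tissue at 0.12 to 0.18, and the members' medians there were -0.01, 0.09, 0.46 and 0.49. With the sample number as a replicate block, calls were 3, 2, 12 and 8 against normal tissue. They were 1 for dysplasia against hyperplasia, 1 for carcinoma in situ against dysplasia and 63 for invasive carcinoma against hyperplasia. The deviations of same-numbered samples had a median correlation of 0.05 over 31 pairs (-0.56 to 0.51), with 11 over 0.1. Pairs with different numbers had a median of -0.004 over 322 pairs, with 103 over 0.1. Values so scattered cannot show whether the numbers pair samples.

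Summed levels moved by more than 1 SD for the large subunit in normal tissue with library totals alone (17830 CPM). With library sizes without mitochondrial and muscle genes they were 22372, 19952.5, 21987 and 27003 CPM for the large subunit from normal tissue to carcinoma in situ and 16301.5, 14387 and 15861 CPM for the small subunit from normal tissue to dysplasia. With 1 sample left out, calls on log2 ratios were gained or lost for Rpl22l1 to Rpl22 (hyperplasia against normal -0.46 to -0.41, dysplasia against normal -0.28 to -0.23, invasive carcinoma against hyperplasia 0.21 to 0.30), Rpl3l to Rpl3 (dysplasia against normal -0.90 to -0.67, dysplasia against hyperplasia -0.60 to -0.43, carcinoma in situ against dysplasia -0.66 to -0.32), Rpl7l1 to Rpl7 (hyperplasia against normal 0.27 to 0.40, dysplasia against normal 0.23 to 0.36, invasive carcinoma against hyperplasia -0.24 to -0.16) and Rps27l to Rps27 (hyperplasia against normal 0.39 to 0.48). No called result changed sign. The 3 normal samples limit every comparison with them, and few counts limit Rps19bp1, Rpl13a and Rps27rt.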
